A study of Rattus norvegicus with 4 samples.

Results

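The genes described here are 31 genes of myelin and of the oligodendrocyte lineage, named for their known roles, with earlier results of these arrays already seen. A probe set of the array belonged to them when the platform annotation gave it a single gene symbol and that symbol was one of the 31. This found 41 probe sets of 29 genes, and Tf and Gpr17 had none. Of these, 34 probe sets of 25 genes reached the minimum signal of 100 on 2 or more arrays and were tested, among 14791 tested probe sets of the 31042 on the array. The 24 genes of mature oligodendrocytes and myelin, 20 of them tested, were kept apart from the 7 genes of progenitors and of lineage transcription factors, of which 5 were tested.

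The arrays measured total hippocampal RNA of male Wistar rats aged 16 months. Stressed rats had gone through 4 weeks of chronic unpredictable mild stress, a changing series of mild stressors used as a model of depression, which began at 15 months, and nonstressed controls of the same age were kept under standard housing. Each group had 2 arrays, and each array carried the pooled RNA of 3 rats. The pools are called biological replicates, but it is not stated that they shared no rats, so each p measures only the spread between these pools, which can be partly technical. In such bulk RNA, fewer oligodendrocytes and less RNA per cell cannot be told apart.

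Oligodendrocytes wrap axons of the central nervous system in myelin, a stack of lipid-rich membrane held together by a small set of abundant proteins. They arise from progenitors that carry the receptor Pdgfra and the proteoglycan Cspg4 (NG2), under transcription factors such as Olig1, Olig2, Sox10 and Nkx2-2. Galactosylceramide and sulfatide, the glycolipids characteristic of myelin, are made by the enzymes of Ugt8 and Gal3st1, and Fa2h adds the hydroxyl group that many of their fatty acids carry.

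The 4 arrays were close to each other in scale, with median signals of 79.6 to 82.3. Log2 signals of the tested probe sets correlated with a Pearson r of 0.993 and 0.994 between arrays of a group and of 0.972 to 0.974 between the groups, over probe sets that are not independent replicates. The control probe sets of beta-actin gave a ratio of 3′ to middle signal of 3.38 and 3.42 in stressed rats and of 2.51 and 2.52 in controls, whereas this ratio was 1.71 to 1.83 for Gapdh on all arrays. The ratio of 3′ to 5′ signal of beta-actin was higher, at 7.82 and 7.66 in stressed rats and 6.67 and 6.2 in controls. For Gapdh it was 2.12 to 2.25. The part of these differences in the results was not tested. All 12 neuronal and all 12 astrocyte markers of lists used as a check of the tissue were among the tested genes. Of 8 peripheral myelin genes only 2 were tested, Pmp22 and Egr2, the latter only through its control signals, and neither passed at its brightest probe set, although the other probe set of Pmp22, which other cells also express, fell by 0.85 on the log2 scale.

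At the brightest probe set of each gene, more mature myelin genes were lower than higher in stressed rats, by small amounts. The only progenitor gene past the test was Cspg4, which reached the signal minimum only through the stressed arrays, where it was higher, and so had to differ to be tested. Each gene was counted at its brightest tested probe set, and a gene rose or fell when its adjusted p from limma, over all tested probe sets, was under 0.05. Of the 25 tested genes 7 fell (28%) and 3 rose (12%), against 10.2% and 11.1% of the 9264 genes tested. Of the 5 progenitor genes limma called 1 higher and 0 lower, as it did at unadjusted p under 0.05. The genes that fell were Cnp, Mal, Tspan2, Ugt8, Fa2h, Aspa and Bcas1, all of them mature, and those that rose were Mag, Car2 and the progenitor gene Cspg4. The median log2 fold change was -0.09 over the 20 mature genes and 0.08 over the 5 progenitor genes, against 0.02 over all genes. Over all 29 tested probe sets of the mature genes the median was 0.01. The stressed signals lay above both controls in 11 of them and below in 11 (37.9% each). Of all tested probe sets 34.9% lay above and 29.5% below. A difference between the mature and the progenitor genes was not tested.

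Counted as probe sets, 9 of 34 fell (26.5%) and 5 rose (14.7%), where 11.8% and 12% of all tested probe sets did. In 12 of the 34 both stressed signals lay below both control signals and in 13 above, shares of 35.3% and 38.2% against 29.5% and 34.9% of all tested probe sets. None of the 34 reached the thresholds of the methods, at least 2-fold at unadjusted p under 0.05, which 1.6% of all tested probe sets did. By limma 10 of the 34 were lower and 9 higher at unadjusted p under 0.05 without regard to fold. Of all 14791 tested probe sets 2597 were lower and 3019 higher by the same measure. The test named in the methods called none of the 34 after Benjamini-Hochberg adjustment. Leaving out the intensity trend of the moderation left 3 genes lower (Tspan2, Ugt8 and Aspa) and 1 higher (Cspg4). Over all 9264 genes it left 528 lower and 536 higher, in place of 948 and 1025. Each removal of an array, which leaves 1 array in a group, also lowered the number of calls over all genes. The lower genes numbered 6 and 5 without stressed replicates 1 and 2, and 4 and 3 without control replicates 1 and 2. The higher ones numbered 2 and 1, and none without either control replicate.

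**Figure D1:**
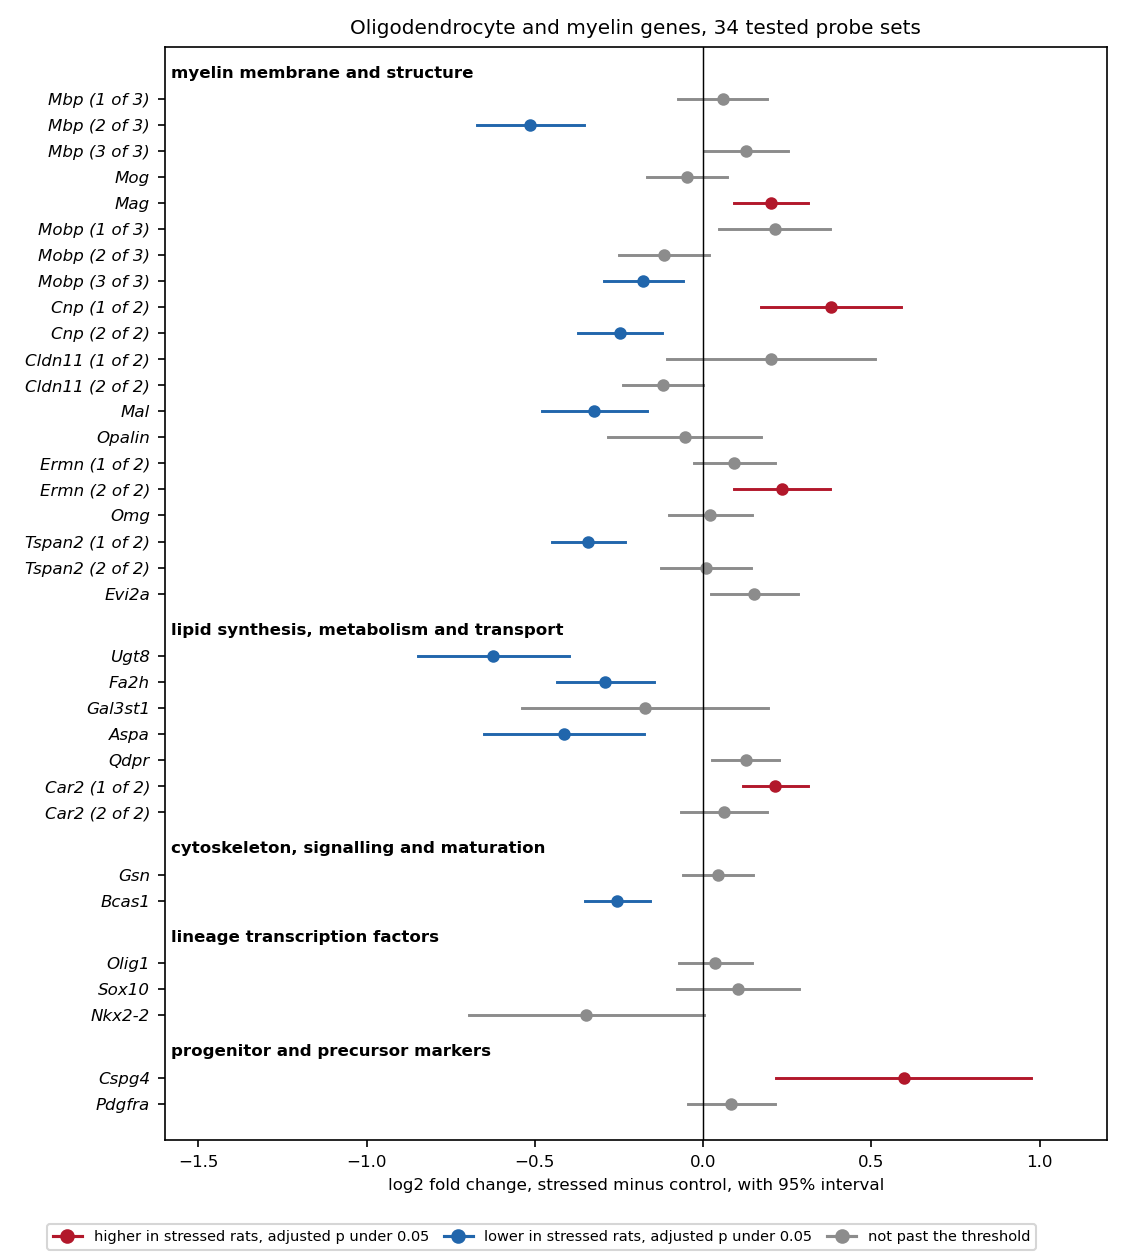
Log2 fold changes (stressed minus control) of the 34 tested probe sets, with 95% intervals from limma, grouped by the role of the gene. Points in blue were lower and points in red higher at adjusted p under 0.05, grey points did not pass, and numbers in brackets count the tested probe sets of a gene in the order of their identifiers; Ugt8 has the lowest value (-0.62) and Cspg4 the highest (0.60).

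The genes of lipid synthesis and metabolism held the largest fall. Ugt8 encodes the galactosyltransferase that makes galactosylceramide. Its signals were 221.6 and 236.7 in stressed rats and 371 and 335.3 in nonstressed controls, so the groups did not overlap. The log2 fold change was -0.62 ± 0.10 (SE, the standard error, limma adjusted p = 0.00406), a change of -35.1% (95% interval -44.4% to -24.1%). Its other probe set gave 0.2 to 1.1 on all arrays and was not tested.

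Fa2h, the fatty acid 2-hydroxylase, fell as well. Its signals were 636.1 and 654.4 in stressed rats and 761.8 and 817.5 in controls, without overlap (log2 fold change -0.29 ± 0.06 SE, limma adjusted p = 0.0139). Aspa, which breaks down N-acetylaspartate and so releases acetate for lipid synthesis, had signals of 241.9 and 212.3 against 298.5 and 305.4, again without overlap (log2 fold change -0.41 ± 0.10 SE, limma adjusted p = 0.024). Gal3st1, whose enzyme turns galactosylceramide into sulfatide, did not pass the test. Its signals of 105 and 96.9 against 124.4 and 103.9 overlapped and lay close to the minimum of 100 (log2 fold change -0.17, 95% interval -0.54 to 0.19).

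The call of Ugt8 held in each removal of an array (limma adjusted p of 0.00723 to 0.0416). That of Fa2h was lost without stressed replicate 1 (limma adjusted p = 0.0501) or control replicate 2 (0.0966), and without the intensity trend (0.057). That of Aspa was lost without stressed replicate 2 (0.097), control replicate 1 (0.0941) or control replicate 2 (0.121).

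The remaining lipid and metabolic genes were higher in value. Car2, which encodes the cytoplasmic carbonic anhydrase of oligodendrocytes, had signals of 3109.5 and 3154.1 in stressed rats and 2689.5 and 2707.3 in controls at its brighter probe set (log2 fold change 0.21 ± 0.04 SE, limma adjusted p = 0.0101). At its dimmer probe set the groups overlapped, with 1209.5 and 1285.4 against 1166.6 and 1225.1 (log2 fold change 0.06, limma adjusted p = 0.46). The call of Car2 was lost without stressed replicate 2 (limma adjusted p = 0.0517), control replicate 1 (0.0622) or control replicate 2 (0.0621), and without the intensity trend (0.0775). Qdpr, which regenerates the cofactor tetrahydrobiopterin, had signals of 4303.1 and 4151.1 against 3884.2 and 3861.2, but its log2 fold change of 0.13 did not pass (limma adjusted p = 0.0716, and 0.0251 after quantile normalization). Tf, the iron carrier transferrin, shares its only bright probe set with Srprb in the annotation. That probe set gave 6894.1 and 6369.4 in stressed rats and 5602.2 and 5888.6 in controls (log2 fold change 0.21, limma adjusted p = 0.0295), and the transcripts of these genes cannot be told apart on it.

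The promoters of 4 of these and the following genes are shown because their transcripts moved in different directions: Ugt8, Fa2h and Mal fell and Mag rose. Each sequence is the 250 bases before the annotated start in RefSeq, build GRCr8, read 5′ to 3′ on the strand of the gene. Capitals mark matches on either strand to ACAAAG or ACAATG, letters bound by SOX proteins, or to CTGGCAC or CTGGTAC, letters bound by Myrf, a transcription factor of myelin genes.
Ugt8 (chr2:217007168-217007417, minus strand): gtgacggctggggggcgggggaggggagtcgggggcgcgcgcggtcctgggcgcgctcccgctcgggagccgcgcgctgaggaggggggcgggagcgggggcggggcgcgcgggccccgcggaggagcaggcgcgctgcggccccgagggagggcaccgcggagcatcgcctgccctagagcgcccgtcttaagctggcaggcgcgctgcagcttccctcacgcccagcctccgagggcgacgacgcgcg
Fa2h (chr19:56273481-56273730, minus strand): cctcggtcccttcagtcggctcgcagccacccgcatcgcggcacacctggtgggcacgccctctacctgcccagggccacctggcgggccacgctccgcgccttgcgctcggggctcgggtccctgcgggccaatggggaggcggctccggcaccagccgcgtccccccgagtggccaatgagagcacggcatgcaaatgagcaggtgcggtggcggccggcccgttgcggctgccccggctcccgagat
Mal (chr3:135341424-135341673, minus strand): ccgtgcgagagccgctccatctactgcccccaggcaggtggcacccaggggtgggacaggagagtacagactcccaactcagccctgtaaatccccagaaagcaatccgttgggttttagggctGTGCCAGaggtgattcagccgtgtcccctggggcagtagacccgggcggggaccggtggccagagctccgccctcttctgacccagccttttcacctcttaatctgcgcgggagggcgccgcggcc
Mag (chr1:95291045-95291294, minus strand): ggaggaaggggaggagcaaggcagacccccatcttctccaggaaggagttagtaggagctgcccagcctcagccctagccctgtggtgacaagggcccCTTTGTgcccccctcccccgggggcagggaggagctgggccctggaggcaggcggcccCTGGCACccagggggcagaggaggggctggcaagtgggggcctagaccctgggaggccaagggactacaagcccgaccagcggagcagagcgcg
The windows of Ugt8, Fa2h, Mal and Mag held 81.2%, 74.4%, 64.8% and 70% of G and C, against 52.2% over all 33469 promoters. Those of Ugt8 and Fa2h held no match to these letters. Mal had a Myrf match 126 bases before the start. Mag had a SOX match at 152 and a Myrf match at 94 bases before the start, which do not overlap. Promoters were given for 23 of the 31 genes, of which 6 (26.1%) held a SOX match, against 25.3% of all promoters. A Myrf match was held by 6 of them (26.1%), those of Mag, Cnp, Cldn11, Mal, Opalin and Olig2, against 5.48% of all promoters. Mbp had windows with and without a SOX match and was counted among the genes holding a match, whereas the shares of all promoters count promoters. Such matches describe the letters of these windows only.

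Among the genes of the myelin membrane with 1 tested probe set, Mag rose and Mal fell. Mag, the myelin-associated glycoprotein of the membrane next to the axon, had signals of 1595.5 and 1549.3 in stressed rats and 1387.4 and 1346.9 in controls. The groups did not overlap, and the log2 fold change was 0.20 (SE 0.05, limma adjusted p = 0.0207), a change of 15% (95% interval 6.5% to 24.2%). Mal, a proteolipid that sorts membrane to myelin, had signals of 1532.4 and 1733.2 against 2105.1 and 1975.5 (log2 fold change -0.32 ± 0.07 SE, limma adjusted p = 0.0124). The call of Mag was lost without stressed replicate 1 (limma adjusted p = 0.0911), control replicate 1 (0.0668) or control replicate 2 (0.115), and without the intensity trend (0.0954). That of Mal was lost without control replicate 1 (0.0896) or control replicate 2 (0.0516), and without the intensity trend (0.0737).

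Several other membrane genes had signals close to those of controls. Mog, the glycoprotein on the outer face of the sheath, had signals of 1175.6 and 1228.4 against 1220.3 and 1265.3, which overlapped (log2 fold change -0.05, 95% interval -0.17 to 0.07). Opalin, a transmembrane protein of the sheath, had 567.3 and 694.5 against 627.7 and 676.4, also overlapping (log2 fold change -0.05, 95% interval -0.28 to 0.17, and 0.09 without stressed replicate 1). Omg, an anchored glycoprotein found on oligodendrocytes and neurons, had 2199.5 and 2050.3 against 2044.6 and 2140.4 (log2 fold change 0.02, 95% interval -0.10 to 0.14). None of these 3 passed the test. Evi2a had signals of 1586.9 and 1734.8 against 1496.5 and 1489.2, with no overlap and a log2 fold change of 0.15 that did not pass (limma adjusted p = 0.0841). It ranged from 0.22 without stressed replicate 1, where it passed (limma adjusted p = 0.0462), to 0.09 without stressed replicate 2. Gjb1, the gap junction protein connexin 32, had signals of 53.9 to 85 on all arrays and was not tested.

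Mag and Omg bind the Nogo receptor of neurons, and genes of this pathway moved in both directions. Of 13 listed genes 9 were tested. At adjusted p under 0.05 from limma 4 rose (44.4%) and 1 fell (11.1%), against 11.1% and 10.2% of all genes. The median log2 fold change was 0.05, against 0.02 over all genes. Rtn4r, the Nogo receptor, rose from 471.95 to 578.8 in mean signal (log2 fold change 0.29, limma adjusted p = 0.0155), while its other tested probe sets at 0.12 and 0.23 did not pass. Rtn4rl1, a related receptor, rose by 0.22 on the log2 scale (limma adjusted p = 0.0352). The small GTPase gene Rhoa fell by 0.59 at its brighter probe set and by 0.74 at the other, both past the test. Rock2, a kinase that acts after it, rose by 0.19 at its brightest probe set. Another of its probe sets fell, from 1097.1 and 1196.3 in controls to 574.3 and 573.3 in stressed rats (limma adjusted p = 6.98e-05), and the third did not pass.

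For 5 of the 7 genes with several tested probe sets, these gave estimates of opposite sign. Such a split occurred in 46.2% of all 1871 genes with several tested probe sets. Cnp, the phosphodiesterase of uncompacted myelin, was called in both directions, which happened in 5.13% of those 1871 genes. Its bright probe set 1387897 had signals of 5476.1 and 5032 in stressed rats and 6098.2 and 6360.2 in controls (log2 fold change -0.25 ± 0.05 SE, limma adjusted p = 0.0154). Its dim probe set 1370693 had 631.7 and 720.5 against 551.4 and 487.5 (log2 fold change 0.38 ± 0.09 SE, limma adjusted p = 0.0199). Neither set of signals overlapped between the groups. With the mean of its probe sets Cnp was not called, and either call was lost without stressed replicate 2 (limma adjusted p of 0.0954 and 0.0803), with control replicate 2 left out (0.111 and 0.125) and without the intensity trend (0.0902 and 0.0735). The call of the bright probe set was also lost without control replicate 1 (0.0587).

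Mbp, the myelin basic protein that holds the inner faces of the membrane together, had no single direction. Its brightest probe set 1368810 had signals of 12231.7 and 11317.3 in stressed rats and 10934.6 and 11686.7 in controls, which overlapped (log2 fold change 0.06, 95% interval -0.08 to 0.19, and -0.02 after quantile normalization). The probe set 1387341 had 4012.3 and 3721.2 against 3447.3 and 3630.4 (log2 fold change 0.13, limma adjusted p = 0.122, and 0.046 after quantile normalization). Only the dimmest, 1383479, passed, with 465.7 and 507.5 against 693.2 and 694.4 (log2 fold change -0.51 ± 0.07 SE, limma adjusted p = 0.00206). This call was kept in each removal of an array and without the intensity trend.

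The signals of Mobp, another basic protein of compact myelin, also differed in direction between probe sets. Its brightest probe set gave 7985.7 and 8529.7 in stressed rats and 8595.2 and 9316.4 in controls and did not pass (log2 fold change -0.12, limma adjusted p = 0.178). The dimmest, with 977.7 and 971.8 against 1117.6 and 1087.1, fell by 0.18 on the log2 scale (limma adjusted p = 0.0388), and the third, with 1890.8 and 1834.2 against 1490.6 and 1734, had a log2 fold change of 0.21 that did not pass (limma adjusted p = 0.0678). This value was 0.10 without control replicate 1 and 0.32 without control replicate 2, where it passed (limma adjusted p = 0.0303). The fall of the dimmest did not pass in any removal of an array (limma adjusted p of 0.102 and 0.117 with stressed replicate 1 or 2 left out, 0.158 and 0.107 with control replicate 1 or 2 left out), without the intensity trend (0.117) or with dim probe sets kept in the fit (0.0796).

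Tspan2, a tetraspanin of maturing oligodendrocytes, fell at its brighter probe set. The signals there were 1073.2 and 1079.1 in stressed rats and 1366.5 and 1359.5 in controls (log2 fold change -0.34 ± 0.05 SE, limma adjusted p = 0.00249), and the call was kept in each removal of an array. Its other probe set had 706.4 and 684 against 695.8 and 686.3 (log2 fold change 0.01, 95% interval -0.12 to 0.14, and -0.01 after median centring). Cldn11, the claudin of the tight junctions in myelin, did not pass at either probe set, with log2 fold changes of -0.12 at the bright and 0.20 at the dim one, although the bright one passed after quantile normalization (limma adjusted p = 0.0187). Ermn, which encodes a cytoskeletal protein of oligodendrocytes, was higher in value at both. Its dimmer tested probe set rose from 559.3 and 549.1 to 638.9 and 664 (log2 fold change 0.23, limma adjusted p = 0.0302), but this call was lost in each removal of an array (0.0585 and 0.12 with stressed replicate 1 or 2 left out, 0.0939 and 0.128 with control replicate 1 or 2 left out), without the intensity trend (0.0722) and with dim probe sets kept in the fit (0.0572). The brighter one had a log2 fold change of 0.09 (limma adjusted p = 0.235).

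**Figure D2:**
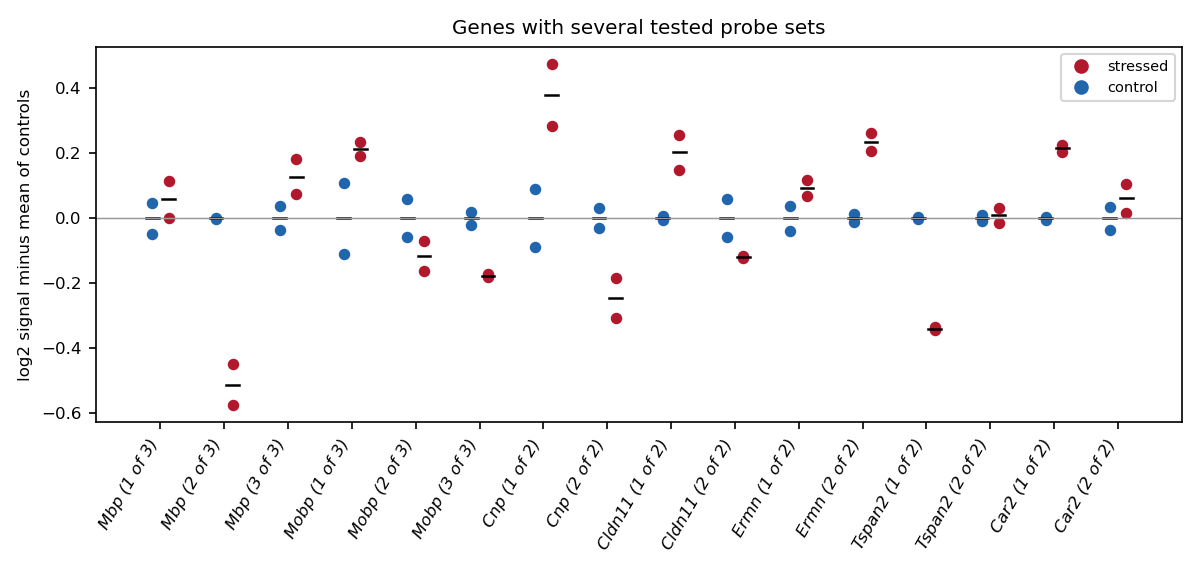
Log2 signal of each array minus the mean of the 2 control arrays for the 16 tested probe sets of the 7 genes with several of them, where numbers in brackets follow the order of the identifiers and black lines are group means. The stressed arrays of Cnp lie above the controls at the first probe set (0.38 on average) and below them at the second (-0.25), and those of Mbp are lowest at the second (-0.51).

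Of the genes of signalling, cytoskeleton and maturation only Bcas1 and Gsn were tested. Bcas1, which marks oligodendrocytes that have begun to form myelin, fell from 4817.5 and 4769.1 in controls to 4035.3 and 4000.6 in stressed rats. The groups were far apart relative to their spread, with a log2 fold change of -0.25 (SE 0.04, limma adjusted p = 0.00489), a change of -16.2%. The call was kept in each removal of an array and lost without the intensity trend (limma adjusted p = 0.0553). Gsn, the actin-severing protein gelsolin, had 1770.8 and 1734.5 against 1699.4 and 1700.1 and did not pass (log2 fold change 0.04, limma adjusted p = 0.511). The neuregulin receptor gene Erbb3 (28 to 42.9) and the homeobox gene Nkx6-2 (55.9 to 95.9) were below the signal minimum on all arrays.

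**Figure D3:**
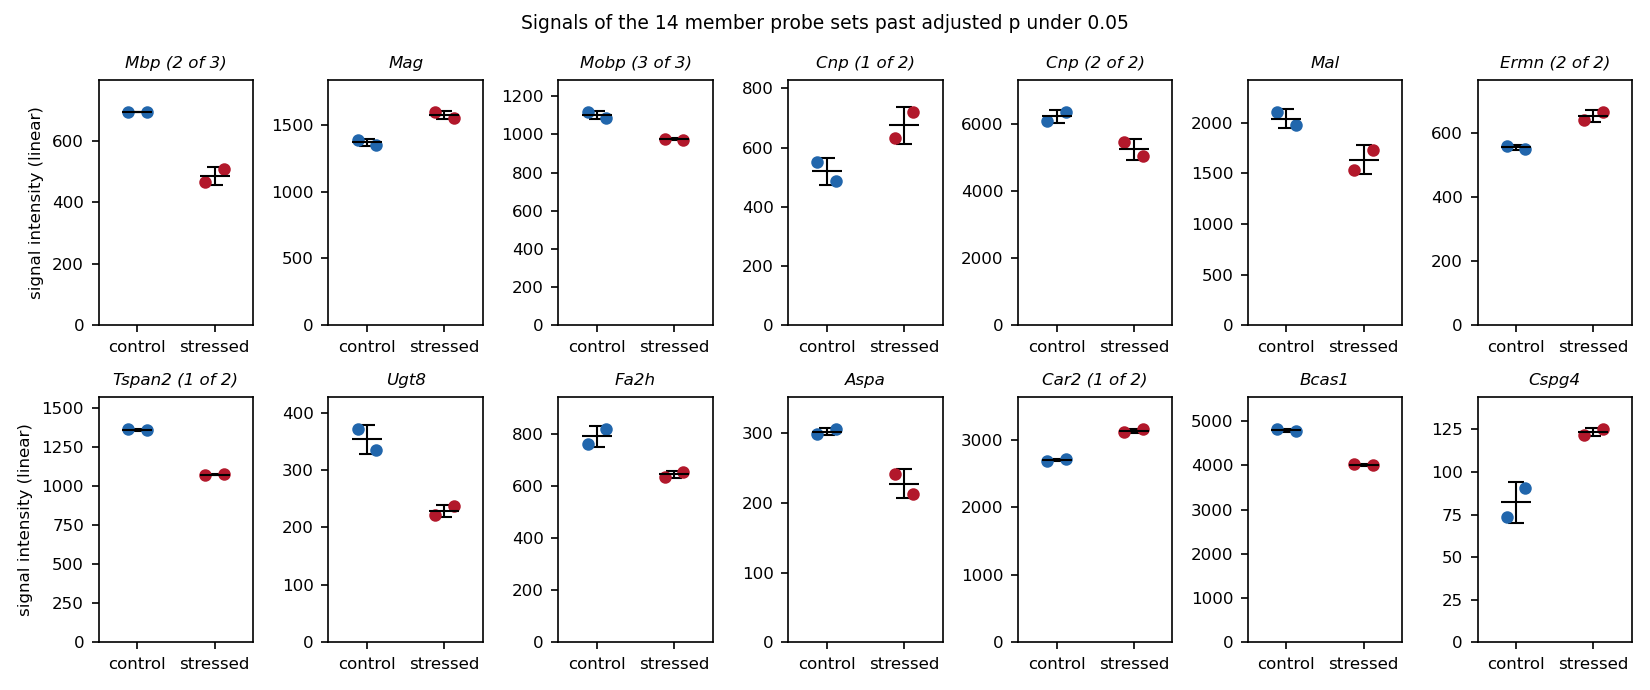
Linear signal intensities of the 14 probe sets past adjusted p under 0.05, one panel each with its own axis from 0; points are arrays, horizontal marks are means and bars 1 SD (n = 2 arrays per group). The panels were picked by the test on these same arrays, so the lack of overlap in each adds nothing to it. The differences run from -11.6% (Mobp) to -35.1% (Ugt8) among the falls and from 15% (Mag) to 51.1% (Cspg4) among the rises. Cspg4 reached the signal minimum only through the stressed arrays.

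The transcription factors of the lineage did not pass the test in either direction. Olig1 had signals of 2825.9 and 2851.3 in stressed rats and 2695.1 and 2841.3 in controls, which overlapped (log2 fold change 0.04, 95% interval -0.07 to 0.14, and -0.0014 without control replicate 1). Sox10 had 500.1 and 546.2 against 506.3 and 467.6 (log2 fold change 0.10, 95% interval -0.08 to 0.28). Nkx2-2, which acts in progenitors and early differentiation, had 108.9 and 136.9 against 158.2 and 152.5, without overlap, and its log2 fold change of -0.35 did not pass (SE 0.15, limma adjusted p = 0.134). At unadjusted p under 0.05 none of the 3 was called by limma, and none by the test of the methods after adjustment. Olig2, a defining factor of the lineage, had signals of 7.7 to 31.6 over its 2 probe sets and was not tested.

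Of the progenitor markers Cspg4 rose and Pdgfra did not pass. Cspg4 was dim, with signals of 121.7 and 125 in stressed rats and 73.7 and 90.4 in controls, so that neither control array reached the signal minimum. Its log2 fold change was 0.60 (SE 0.16, 95% interval 0.22 to 0.97, limma adjusted p = 0.0347). This call was lost in each removal of an array (0.0933 and 0.112 with stressed replicate 1 or 2 left out, 0.157 and 0.0624 with control replicate 1 or 2 left out), and with dim probe sets kept in the fit (0.0799). Pdgfra, the receptor of platelet-derived growth factor, had 1031 and 1022.2 against 936.8 and 1001.4, without overlap (log2 fold change 0.08, 95% interval -0.04 to 0.21). Cspg4 also marks pericytes, and of a list of pericyte and smooth muscle markers 7 of 12 were tested. Among them 1 rose (Pdgfrb, 0.54) and 1 fell (Vtn, -0.44), 14.3% each, against 11.1% and 10.2% of all genes. Pdgfrb, with 104 and 104.2 against 69.4 and 73.9, likewise passed the signal minimum only through the stressed arrays. The summed signals of this list were 1124 and 1128 in stressed rats and 1087 and 1285 in controls, no marker was at 0, and their part in the result of Cspg4 was not tested.

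Other genes of mature oligodendrocytes had more rises than falls, the opposite of the member genes above. Of 46 further genes of mature oligodendrocytes 32 were tested, of which 10 rose (31.2%) and 4 fell (12.5%), against 11.1% and 10.2% of all genes, and their median log2 fold change was 0.13. Myrf, which turns on myelin genes and whose letters are marked in the promoters above, rose from 710.3 and 702.9 to 837.9 and 853.1 (log2 fold change 0.26, limma adjusted p = 0.013). Enpp2 (autotaxin), which is also abundant in choroid plexus, rose by 0.34, and Gatm, an enzyme of creatine synthesis, by 0.35 on the log2 scale. Pex5l, which neurons also express, fell by 1.01 (limma adjusted p = 2.7e-05) and Cdkn1c, a cell cycle inhibitor, by 0.47. Of 28 further progenitor genes 19 were tested, of which 5 rose (26.3%) and 6 fell (31.6%), with a median of -0.03. Id2 fell by 0.75 and by 0.85 at its tested probe sets and Scrg1 by 0.54. Ptprz1, a receptor phosphatase of progenitors and astrocytes, rose by 0.40 and by 0.42. Id4 rose by 0.29 at its brightest probe set, but its other 3 passed at -0.57, 0.34 and 0.43.

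Lists of other cell types moved as well, and some of their cells express members. Choroid plexus, which expresses Car2 and Tf, had 10 of 15 markers tested. At adjusted p 7 rose (70%) and none fell, against 11.1% and 10.2% of all genes (9 higher and none lower at unadjusted p under 0.05 by limma). The summed signals of these 10 markers were 16371 and 15033 in stressed rats and 11370 and 13195 in controls. Without the brightest marker the ratio of the group sums was 1.71 in place of 1.28. The median log2 fold change was 0.78, and Sostdc1 and F5 rose by 0.88 and 1.17 on the log2 scale. No probe set of these markers was at 0, Kl, Kcnj13 and Tmem72 were below the signal minimum, and the part of this list in the values of Car2 and of the probe set of Tf was not tested. Of 12 markers of meninges and fibroblasts, cells that also express Gsn and Pdgfra, 9 were tested. Among them 6 fell (66.7%) and 1 rose (11.1%), with a median of -0.66. Dcn fell by 0.70 on the log2 scale and the collagen gene Col1a2 by 0.75. The sums were 2809 and 2772 against 3416 and 3336 (a ratio of 0.826, and 0.666 without the brightest marker), and their part in the values of those genes was not tested. The summed signals of the 20 mature myelin genes were 57727 and 57082 in stressed rats and 58655 and 60856 in controls, a ratio of 0.961, and those of the 5 progenitor genes were 4588 and 4682 against 4370 and 4553, a ratio of 1.04.

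**Figure D4:**
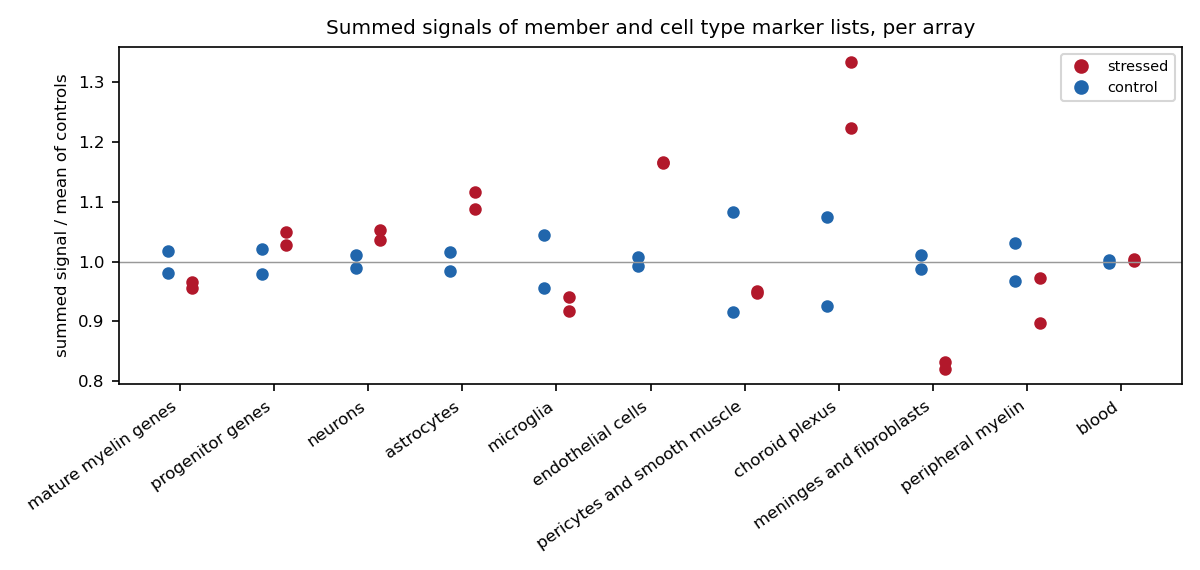
Summed signal of each list on each array divided by the mean of the 2 control arrays (brightest tested probe set of each gene, linear signals). The 2 stressed arrays of the mature myelin genes lie just below the controls (ratio of the means 0.961), those of choroid plexus markers above them (1.28) and those of meninges and fibroblast markers below them (0.826). Without the brightest gene of each list the last 2 ratios were 1.71 and 0.666.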

How the data were processed

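Hippocampal RNA of 2 stressed and 2 control pools was profiled on Affymetrix Rat Genome 230 2.0 arrays. The authors scaled signal intensities with GCOS to a target value, and these linear intensities were used as deposited (mean of 300.1 per array after trimming 2% at each end). Log2 signals were computed with zeros set to 0.1. The 57 control probe sets were left out. The annotation gave a single symbol to 20826 of the other probe sets and several to 436. The limma package (3.58.1, R 4.3.3) compared the groups, its variance prior following the intensity (7.73 degrees of freedom in all), and p was adjusted by Benjamini-Hochberg over 14791 probe sets. Plots were made with matplotlib 3.10.9 in python 3.11.15. The number of arrays limits the precision. The smallest two-sided p of an exact permutation over 2 and 2 arrays is 0.333. The members and lists were chosen with earlier results of these data known. All members were named. Of other genes those with the smallest p were named, 4 of each lineage or pathway list and 2 at most of each list of another cell type, besides Myrf. Lists of microglia, endothelial cells and blood are given in the closing section. On simulated arrays of 14791 probe sets, of which 200 were changed, limma recovered 70.7% of 1.5-fold and 96.4% of 2-fold changes. The simulated noise was independent between probe sets, and in the data 23.8% of tested probe sets passed. Changes below 1.5-fold, as in most called members, were not simulated. Alternatives were other normalization, filters, offset, floor, moderation, test, threshold, replicate block, probe set rule and removal of each array.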

Additional observations from a re-analysis of the deposited data

How the results depend on the processing

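The 7 genes lower and 3 higher had the same counts after median centring, with a mean signal of at least 100, an offset of 50 or a floor of 50. Without an intensity trend 3 members were lower and 1 higher (0 mature genes higher and 3 lower; 4 probe sets lower and 1 higher). The test of the methods, on log2 or linear signals, and the 2-fold threshold called 0 genes and 0 probe sets in either direction. At unadjusted p under 0.05 by limma, 5 genes (4 mature) and 9 probe sets were higher. So were 1777 of all 9264 genes and 3019 of all 14791 probe sets. With no filter on dim probe sets 3 probe sets and 0 progenitor genes were higher. With a signal of at least 200 there were also 0 progenitor genes higher, but there Cspg4 was too dim to be tested. With the mean of the probe sets of a gene, or where every tested probe set had to share its direction (added after seeing the data), 1 mature gene was higher. With the replicate number as a block 3 probe sets and 0 progenitor genes were higher, and the other counts stayed within 1.5 times. Deviations of arrays of equal number from their group means correlated with r = -0.11, which fixes the value for crossed numbers at 0.11. This cannot decide whether the numbers pair the arrays, and the labels do not say that they do. A crossed pairing, also added after seeing the data, gave 8 probe sets higher. With the dimmest probe set of each gene, added likewise, 4 genes were higher and 7 lower. Across removals of single arrays, 3 to 6 members were lower and 0 to 2 higher (mature genes alike; 0 progenitor genes higher), and 4 to 7 probe sets lower and 1 to 3 higher. Values that changed sign were all uncalled. They were those of the brightest Mbp probe set (-0.0167 after quantile normalization) and of the second Tspan2 probe set (-0.0111 after median centring). Removals of single arrays gave -0.1999 to 0.092 for Opalin, -0.029 to 0.0723 for Omg, -0.0148 to 0.0317 for that Tspan2 probe set and -0.0014 to 0.0748 for Olig1. The cause of these changes was not tested.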

Other observations

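Genes of the sites where axon and myelin meet moved in both directions. Of 18 genes of the node and paranode of Ranvier 13 were tested, of which 7 rose (53.8%) and 3 fell (23.1%) at adjusted p under 0.05 from limma, against 11.1% and 10.2% of all genes, with a median log2 fold change of 0.24. Nfasc, the cell adhesion molecule that joins axon and glia, rose at its brightest probe set by 0.32 and at another by 0.42. The remaining one, at 0.56, reached the signal minimum only through the stressed arrays (117.9 and 120.4 against 79.6 and 81.8). Nrcam, a related molecule of the node, rose by 0.40 at its brightest and by 0.23 and 0.32 at its other probe sets. Cntnap2, which clusters potassium channels beside the paranode, rose by 0.50, while its other probe set at -0.31 did not pass. Kcna1, a potassium channel of that site, fell from 651.9 and 624.6 to 429.2 and 436.8 (log2 fold change -0.56, adjusted p = 0.00119 from limma). These genes are also used outside myelinated axons, and which cells gave their signals was not tested.

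Receptors through which growth factors and lysophosphatidic acid reach the lineage moved in both directions. Enzymes of lipid synthesis rose and fell at shares near those of all genes. Of 28 signalling genes 17 were tested, with 5 rises (29.4%) and 4 falls (23.5%), against 11.1% and 10.2% of all genes. Their median log2 fold change was 0.06. Lpar1, a receptor abundant in myelinating cells, fell by 0.56 at its brighter probe set (the other, at 0.14, did not pass). Fgfr3, which is also on the list of astrocyte markers, fell by 0.38. Fgfr2 rose by 0.51 and Igf1r by 0.44 and, at its other probe set, by 0.59. Of 26 genes of sphingolipid and fatty acid synthesis 21 were tested, with 3 rises and 3 falls (14.3% each) and a median of 0.03. The rises were those of the fatty acid enzymes Scd2 (0.28), Fasn (0.33) and Fads1 (0.25), which other cells express too, and Cers5, a ceramide synthase, fell by 0.39.

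Of the 12 neuronal markers 3 rose and 3 fell (25% each), against 11.1% and 10.2% of all genes. Their median log2 fold change was 0.06. The summed signals of the 12 were 48547 and 47778 in stressed rats and 45587 and 46613 in controls. The markers named, those with the smallest p, both fell. They were Gad2, an enzyme of GABA synthesis (log2 fold change -1.411), and Gap43 (-0.28). Of the 12 astrocyte markers 2 rose (16.7%), Slc1a3 by 0.37 and Slc4a4 by 0.37, and 1 fell (8.33%), the Fgfr3 already named above. Another probe set of Slc1a3 (-0.43) and of Slc4a4 (-0.57) passed in the opposite direction. Of 9 tested microglial markers 1 rose (11.1%), Csf1r by 0.25, and 2 fell (22.2%), among them C1qb by 0.39. Of 8 tested endothelial markers 3 rose (37.5%) and none fell at adjusted p (4 higher and none lower at unadjusted p under 0.05 by limma). Slco1a4 rose by 0.33 and Slc2a1 by 0.32 on the log2 scale. Of 11 blood markers 3 were tested, of which 2 rose (66.7%), S100a8 by 1.06 and S100a9 by 0.75 on the log2 scale. The remaining marker did not pass. The summed signals of the 3 were alike, at 3082 and 3069 in stressed rats and 3073 and 3060 in controls. S100a8, with 106.6 and 109.2 in stressed rats and 53.8 and 49.6 in controls, was tested only through the stressed arrays.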
